A study of Mus musculus with 16 samples.

Results

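The 79 tRNA entries for aspartate, methionine, proline, phenylalanine, tyrosine and tryptophan were taken from the ncRNA table of mouse plasma extracellular vesicles (pEVs) by amino acid, out of 433 tRNA entries and 15159 ncRNAs in all. Each entry is named by amino acid, anticodon and 2 numbers for the gene copy. The set holds 16 Asp-GTC entries, 9 initiator Met entries (iMet-CAT), 8 elongator Met entries (Met-CAT), 20 Pro entries (8 AGG, 3 CGG, 1 GGG and 8 TGG), 7 Phe-GAA, 11 Tyr-GTA and 8 Trp-CCA entries. The rule reads names only, and these amino acids were chosen with earlier results of these data known.

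Small RNA libraries were made from pEVs of 8 PS19 and 8 wild-type (WT) mice of about 9.6 months, with 200 µL plasma and 1 library per mouse. PS19 mice are heterozygous (PS19+/-) for a transgene that drives mutant human MAPT, the gene of the microtubule protein tau, from the mouse prion promoter on a mixed B6;C3 background. The WT mice were littermates, and each group held males and females in equal number. The model therefore rests on a mutant, promoter-driven human tau added to the mouse's own tau, and the vesicles were precipitated from whole plasma, a step that also carries down other plasma material. The comparison asks whether the tRNA content of circulating vesicles differed between the genotypes.

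tRNAs carry amino acids to the ribosome and read the codon through their anticodon. Methionine has 2 separate tRNAs, an initiator that starts every protein and an elongator that inserts methionine inside the chain, and both carry the anticodon CAT (written as DNA). tRNAs are also cleaved, above all under stress, into shorter fragments that are abundant in blood, and small RNA libraries sample such fragments. Which stretch of each tRNA the reads covered was not analysed here.

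RefSeq lists 73 tRNA genes for these anticodons on GRCm38.p6, the assembly that mm10, the build named in the submitters' processing notes, is made from. They comprise 16 Asp-GTC genes, 16 with CAT for both kinds of Met, 6 Pro-AGG, 3 Pro-CGG, 7 Pro-TGG, 7 Phe-GAA, 10 Tyr-GTA and 8 Trp-CCA. Their names do not map to the copy numbers of the measured entries, so values are not tied to loci. The genes span 72 to 73 bases, apart from the Tyr genes, which are known to carry an intron and span 86 to 93. By GENCODE vM21, 65 lie between genes, 6 lie in introns and 2 overlap an exon. On chromosome 13, 25 of them lie within chr13:21161405-23530419, among them 11 of the 16 Met genes, and 5 Asp genes lie within chr1:171037029-171102442.

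tRNA genes of a family are known to differ by few bases, and short reads can then belong to several of them. The only one of these genes whose bases could be read from the reference used here is n-TPtgg2, a Pro-TGG gene at chr11:67291139-67291210 (GRCm38, plus strand), within exon 12 of the retained-intron transcript ENSMUST00000139052 of Myh8, a myosin heavy chain gene. It is shown because Pro-TGG is among the most abundant of these families, and it was not known which of the 8 Pro-TGG entries it is. The capitals mark the anticodon, bases 33 to 35.
n-TPtgg2: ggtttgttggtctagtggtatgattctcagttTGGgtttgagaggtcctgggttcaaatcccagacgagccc

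Library depth ran from 31153639 to 96831631 ncRNA reads with identical entries counted once (36220722 to 117583663 summed over all entries), and tRNAs took a median of 99.1% of the sum over all entries. Both totals count the reads of nearly identical entries more than once and so overstate the depth. The deposited signal of an entry is its read count divided by a DESeq2 size factor, called the normalized count below. The size factors ran from 0.261 to 2.57, and a single read therefore counted for 0.389 to 3.83 on the normalized scale, the most in PS19 replicate 4. The names of the 8 PS19 libraries and of 2 of the 8 WT libraries (replicates 2 and 4) start with one letter, called the PS19 letter below, and differences within these 10 libraries are given for the most abundant entries described. What the letter stands for is not given in the sources used here, and for the other 6 WT libraries letter and genotype cannot be told apart. The miRNAs of red cells, liver, myeloid cells and platelets, endothelium and neurons that served to check the material (9 in all, miR-451a and miR-122-5p among them) all had reads. The liver miRNA miR-122-5p ranged from 4644 to 189147 normalized counts in PS19 and from 22364 to 365051 in WT, and the red cell miRNA miR-451a from 387 to 3394 and from 787 to 7135. The part of these markers in the results was not tested.

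These tRNAs were a very small share of the tRNA reads. Their share was 0.0196% ± 0.0192 in PS19 against 0.0138% ± 0.0172 in WT (SD, n = 8 each), with 1 entry counted per identical set within an anticodon. These sums, and the tRNA totals they are set against, count the reads of nearly identical entries more than once, 8 profiles of Pro among them. Pro tRNAs made up most of this share, with 0.0179% ± 0.0185 in PS19 and 0.0125% ± 0.0172 in WT (two-sided exact permutation test, p = 0.574), and 0.0229% ± 0.0228 and 0.0156% ± 0.0191 with 1 entry per group that shares reads in both the sum and the total. Asp tRNAs held 0.00139% ± 0.00139 and 0.001% ± 0.000356 (exact permutation test, p = 0.656), and with 1 entry per group that shares reads the order turned, with 0.00383% ± 0.00216 and 0.00403% ± 0.00143 (exact permutation test, p = 0.837). Each of the other amino acids held less than either of these on average, and with all 16 libraries none of the 6 differences passed the exact permutation test at 0.05. The lowest of the 6 p-values was that of Tyr, with 9.23e-05% ± 3.74e-05 in PS19 and 0.000154% ± 0.000134 in WT (exact permutation test, p = 0.304). Both Met tRNAs together held 0.000164% ± 3.1e-05 in PS19 and 0.000141% ± 0.000184 in WT (exact permutation test, p = 0.902). WT replicate 2, the library with the fewest reads, stood at 0.000588% against at most 0.000128% in the other WT libraries, and without it the Met share was higher in PS19 by 8.66e-05 percentage points (exact permutation test, unadjusted p = 0.000466). Within the libraries of the PS19 letter, where WT replicate 2 is 1 of only 2 WT libraries, it was lower in PS19, with a difference of -0.00017 percentage points (exact permutation test, p = 0.2). In bulk samples of this kind, fewer vesicles that carry an RNA and less of it per vesicle cannot be told apart.

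Many entries shared their reads. The 79 entries had 50 distinct profiles of reads, and 32 groups remained when entries whose reads differed by at most 5% of the larger were joined. In 13 Pro entries of 3 anticodons, 6 AGG, 3 CGG and 4 TGG, the reads were nearly the same, with 20779 to 21071 reads each over the 16 libraries. Likewise 13 of the 16 Asp-GTC entries had 1197 to 1219 reads each, and 8 of the 9 initiator Met entries had 569. Pro-AGG-2-1 had 168 reads in exactly the same libraries as 3 entries named for another amino acid, Leu-TAA-5-1, Leu-TAA-5-2 and Leu-TAA-5-3, so its values belong to Pro no more than to Leu. Entries that share reads are not separate measurements. PCR copies of a molecule were also counted as separate reads, so limits set by read numbers cover counting error only.

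Abundance was low. Of the 79 entries, 42 had a mean normalized count of at least 10, 29 had at least 100, and 24 had under 100 reads over the 16 libraries together. Reads were found in all 16 libraries for 41 entries. Levels of the most abundant entry of each anticodon were compared as RPM, the reads of an entry per 1000000 ncRNA reads of its library with identical entries counted once, since most of these genes are of like length. The library total counts reads of nearly identical entries more than once, so RPM is too low by an amount that was not measured. By its median over the 16 libraries, Pro-AGG-1-2 stood at 7.29 RPM, Asp-GTC-2-1 at 3.46, initiator iMet-CAT-3-1 at 0.485, Tyr-GTA-6-1 at 0.287, Trp-CCA-6-1 at 0.0719, elongator Met-CAT-2-1 at 0.0348 and Phe-GAA-1-1 at 0.00527. The leading Pro-TGG and Pro-CGG entries stood beside Pro-AGG at 7.28 and 7.2, as they shared its reads. Pro-GGG-1-1 had a median of 0, with 31 reads in all. Neighbours in this order were not all separated within libraries. Asp-GTC lay above iMet-CAT in 15 of 16 libraries and Pro-CGG above Asp-GTC in 13, but iMet-CAT lay above Tyr-GTA in 9 and Trp-CCA above Met-CAT in 7.

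**Figure D1:**
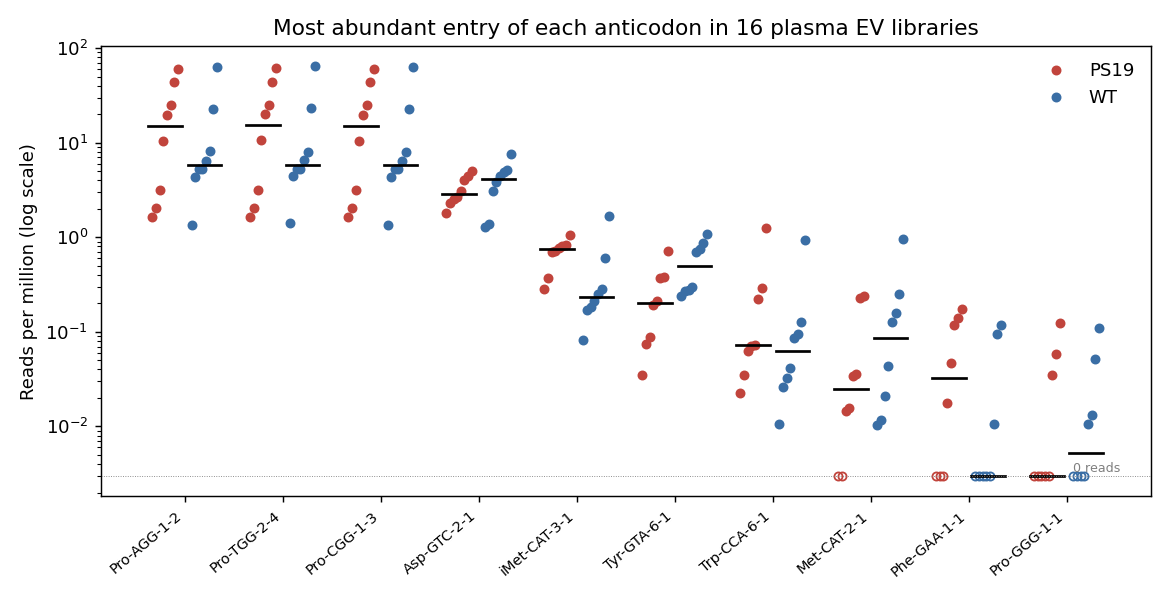
RPM (log scale) of the most abundant entry of each anticodon, ordered by the median over 16 libraries, with 1 point per library (red PS19, blue WT), open points for libraries with 0 reads placed on the dotted line, and black bars for group medians. The points of PS19 and WT overlap for every anticodon, the leading Pro-AGG, Pro-CGG and Pro-TGG entries span 1.34 to 64.0 RPM, and Pro-GGG-1-1 stays between 0 and 0.125.

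Between the genotypes, 8 of the 79 entries were higher in PS19 than in WT at a raw p under 0.05, the threshold that the study used, and 0 were lower (limma on log2(normalized count + 1), 8 PS19 against 8 WT). The background was 2.72% of all 15159 ncRNAs higher and 2.13% lower, and 7.16% of the 433 tRNA entries higher and 0.0% lower. All 8 were initiator Met entries, and since they shared their reads they stood for 2 distinct profiles, 4% of the 50. No entry passed after Benjamini-Hochberg adjustment over all ncRNAs, with a smallest adjusted p of 0.829 in limma, 0.206 in DESeq2 and 0.115 in edgeR. On the recovered reads, DESeq2 gave 9 entries higher and 0 lower at raw p under 0.05 (background 3.83% higher and 1.59% lower), the 8 initiator entries and Trp-CCA-6-1, and edgeR gave 14 higher and 0 lower (background 7.88% higher and 7.26% lower), namely 13 Asp-GTC entries and Tyr-GTA-4-1. These were 11.4% of the 79 entries in DESeq2 and 17.7% in edgeR. The backgrounds given for both tools, and for fits with fewer libraries, are those of all ncRNAs. That of the tRNA entries was counted only for limma with all libraries, so whether the other counts exceed the rate among tRNAs was not tested. None of the edgeR entries was among those of limma or DESeq2. Within the libraries of the PS19 letter, limma gave 0 higher and 0 lower (background 0.998% and 3.62%).

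These counts turned on single libraries. Without PS19 replicate 4, limma gave 0 entries higher and 2 lower (background 3.13% and 2.18%), edgeR 1 higher and 2 lower (background 8.32% and 6.85%), and DESeq2 0 higher and 1 lower (background 3.72% and 2.29%). The limma count was also 0 higher without PS19 replicate 1, WT replicate 5 or WT replicate 6. The entries that were then lower were Tyr-GTA-6-1, in all 3 tools, and Trp-CCA-5-1, in limma and edgeR.

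The log2 differences were more often above than below 0. Their median over the 79 entries was 0.70, against 0.51 over all tRNA entries and -0.01 over all ncRNAs, and 58 of 79 entries (73.4%) were above 0, as were 76.9% of all tRNA entries and 49.2% of all ncRNAs. Over the 50 distinct profiles the median was 0.30, with 35 above 0. The size depended on the scaling and on PS19 replicate 4. The median of the entries was 0.44 with library totals (all ncRNAs -0.11) and 1.28 with factors from miRNAs only (all ncRNAs 0.18), and with all libraries it was 0.21 in edgeR and 0.58 in DESeq2, with 56 and 63 of the 79 entries above 0. Without PS19 replicate 4 it was 0.08 in limma, -0.06 in edgeR and -0.04 in DESeq2, with 54, 39 and 38 entries above 0. The medians over all tRNA entries were then 0.19, 0.18 and 0.17, with 276, 248 and 248 of 433 above 0. That library was the highest of the 16 for 31 of the 50 profiles.

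**Figure D2:**
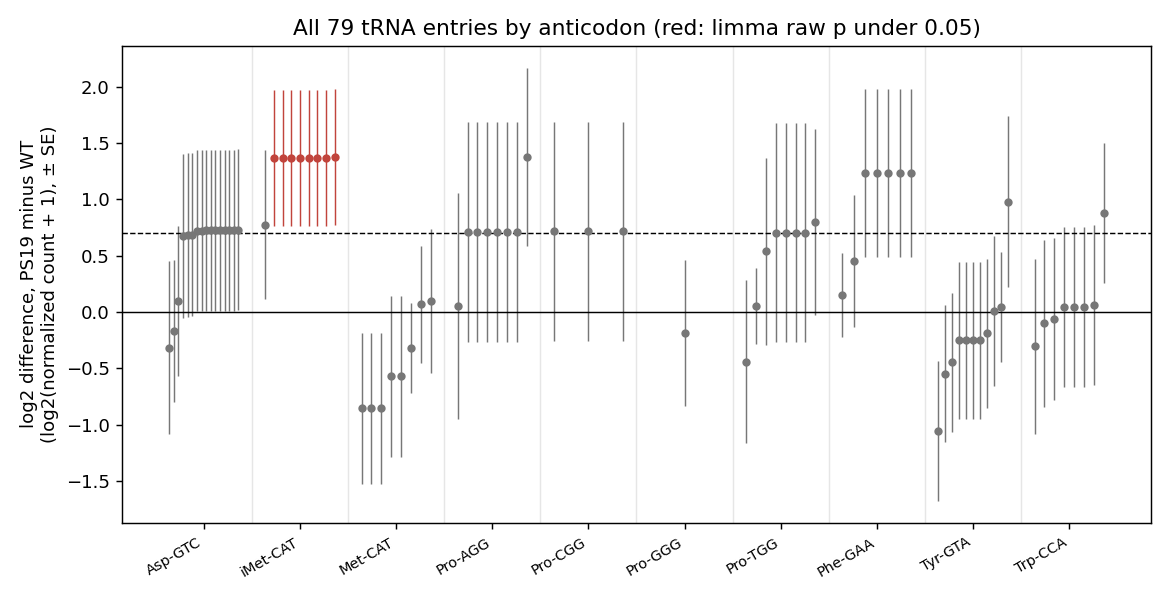
Log2 difference (PS19 minus WT, log2(normalized count + 1)) of each of the 79 entries by anticodon, 1 point per entry with its standard error from limma, in red where the raw p was under 0.05, and with a dashed line at the median of 0.70. The 8 red points are initiator Met entries that share their reads, and the Met-CAT points lie between -0.85 and 0.10.

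The initiator Met tRNA, which starts translation, had the lowest limma p of the set. iMet-CAT-3-1, the most abundant initiator entry, had a lowest, median and highest normalized count of 13.8, 47 and 276 in PS19 and of 4.06, 19.6 and 82.4 in WT. Of the PS19 libraries, 6 lay above the WT median and 1 above every WT library, while 2 WT libraries lay below every PS19 library, so the groups overlapped. Its log2 difference was 1.38 ± 0.60 (SE; limma raw p = 0.0305, adjusted p = 0.829; two-sided exact permutation test, p = 0.0483). iMet-CAT-1-1 and the 6 entries identical to it differed by 1.37 ± 0.60 (SE; limma raw p = 0.0317, adjusted p = 0.829; exact permutation p = 0.0503). iMet-CAT-2-1, the only initiator entry with reads of its own and named after its values had been seen, had 29 reads and a log2 difference of 0.78 (exact permutation p = 0.276), which was -0.16 within the libraries of the PS19 letter.

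The initiator call rested on the test and on single libraries. DESeq2 gave iMet-CAT-3-1 a log2 difference of 1.54, which passed at raw p under 0.05 (adjusted p = 0.206), and edgeR 1.05, which did not (adjusted p = 0.461). PS19 replicate 4 held 35.7% of its summed normalized count but 12.7% of its reads. Without it no tool gave a raw p under 0.05, with 1.02 in limma (adjusted p = 0.807), 0.79 in DESeq2 (adjusted p = 0.633) and 0.80 in edgeR (adjusted p = 0.570). The limma call was also lost without PS19 replicate 1, WT replicate 5 or WT replicate 6, with library totals, where the difference was 1.13, and within the libraries of the PS19 letter, where it was 1.05 ± 0.98 (SE; limma adjusted p = 0.917). As RPM it stood at 0.691 ± 0.251 in PS19 against 0.432 ± 0.523 in WT (SD, n = 8 each; exact permutation p = 0.237), and the highest of all was WT replicate 2 with 1.67.

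The elongator Met tRNA, which serves inside the chain, had values in the other direction at far lower counts. Met-CAT-2-1, whose values are those of Met-CAT-2-2 and Met-CAT-3-1 and whose reads Met-CAT-4-1 and Met-CAT-5-1 nearly share, had 112 reads in all. Its lowest, median and highest normalized count was 0, 2.09 and 11.6 in PS19 and 0.579, 3.9 and 24.1 in WT. WT replicates 1, 2 and 4 lay above every PS19 library and PS19 replicates 1 and 3, with 0 reads, below every WT library, while the rest overlapped. The log2 difference was -0.85 ± 0.67 (SE; exact permutation p = 0.24), and 6 of the 8 Met-CAT entries had a difference below 0, 5 of which are this 1 group. Of the other 3, which had 9 to 45 reads each, Met-CAT-1-2 had -0.32, Met-CAT-1-1 0.07 and Met-CAT-6-1 0.10. Within the libraries of the PS19 letter the difference of Met-CAT-2-1 was -2.12, which did not pass in limma either.

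The ratio of initiator to elongator Met tRNA, which compares both within a library, averaged 3.56 ± 2.45 on the log2 scale in PS19 against 1.42 ± 1.45 in WT (SD, n = 8 each). It ran from -0.07 to 7.35 in PS19, with a median of 3.95, and from -0.64 to 3.92 in WT, with a median of 1.37. The initiator was above the elongator in 7 of 8 libraries of each genotype. In PS19, 6 libraries lay at 3.90 or above and PS19 replicates 7 and 8 at 0.14 and -0.07, whereas in WT only replicate 8 exceeded 3. The leading elongator entry had only 0 to 3 reads in each of those 6 libraries. It had 13 and 16 in PS19 replicates 7 and 8, and 1 to 30 in WT. The high ratios therefore rest on very few elongator reads. The difference of 2.14 between the genotypes missed the threshold (two-sided exact permutation test, p = 0.0525), and passed it without PS19 replicate 7, PS19 replicate 8 or WT replicate 8, with values of up to 2.65. The highest value, of PS19 replicate 1, was set by the pseudocount, since no elongator read was found there beside 53 reads of iMet-CAT-3-1. With 1 entry per group that shares reads, a choice made after the values had been seen, the difference was 1.97 (exact permutation test, p = 0.0476), and within the libraries of the PS19 letter it was 2.76 (exact permutation test, p = 0.244).

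**Figure D3:**
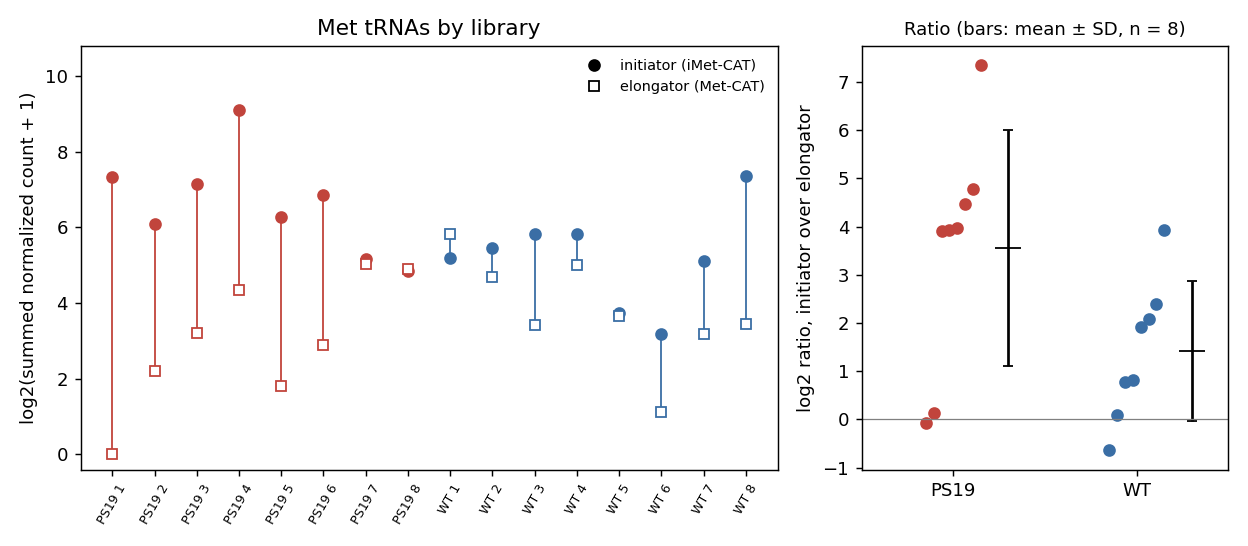
Left, log2(summed normalized count + 1) of initiator (filled circles) and elongator (open squares) Met tRNA in each library, joined by a line (red PS19, blue WT). Right, the log2 ratio of initiator to elongator per library with mean and SD; 6 PS19 libraries lie at 3.90 or above and 2 near 0, while WT runs from -0.64 to 3.92.

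The summed level of an anticodon, with 1 entry per identical set, differed between the genotypes at p under 0.05 for none of the 10 anticodons described here. Over all 52 tRNA anticodons the background was 0.0% higher and 3.85% lower. The initiator had the smallest p of the 10, with sums of 147 ± 171 in PS19 against 51 ± 49.2 in WT (SD, n = 8 each), a log2 difference of 1.39 (exact permutation test, p = 0.055; adjusted over the 52 anticodons, p = 0.514), and it passed at raw p under 0.05 with library totals (1.13), with miRNA factors (1.97) and without PS19 replicate 7, PS19 replicate 8 or WT replicate 8. It did not pass within the libraries of the PS19 letter (0.97, exact permutation p = 0.378) or without PS19 replicate 4 (1.03, exact permutation p = 0.11). Phe-GAA followed with 1.24 (exact permutation test, p = 0.212) and Met-CAT with -0.75 (p = 0.361, same test). Since 13 Pro entries share their reads, the sums of Pro-AGG, Pro-CGG and Pro-TGG hold mostly the same reads and are not 3 separate results.

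Pro tRNAs, the most abundant of the set, varied more between mice than between genotypes. Pro-AGG-1-2 had a lowest, median and highest normalized count of 65.8, 945 and 11627 in PS19 and of 33.4, 536 and 5657 in WT, on 92 to 3444 and 86 to 5795 reads. Only PS19 replicate 4 lay above the WT range and only 1 WT library below the PS19 range. The log2 difference was 0.71 ± 0.97 (SE; exact permutation test, p = 0.57), 0.15 without PS19 replicate 4 and 1.66 within the libraries of the PS19 letter. DESeq2 and edgeR gave 0.84 and 0.17, and -0.33 and -0.35 without that library.

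As RPM, Pro-AGG-1-2 ran from 1.63 to 60.8 in PS19 and from 1.36 to 63.2 in WT, a range of 46.5 times from the lowest to the highest library. PS19 replicate 7 and WT replicate 3 were the highest of their groups, followed by PS19 replicates 4 and 1 and by WT replicate 8. Pro-TGG-1-1 and Pro-TGG-4-1, named after their values had been seen, had reads of their own. Pro-TGG-1-1 (5456 reads) ran from 0.888 to 19.1 in PS19 and from 0.775 to 11.1 in WT (exact permutation test of the difference, p = 0.36), and Pro-TGG-4-1 (2075 reads) from 0.124 to 8.89 and from 0.401 to 3.41 (exact permutation test, p = 0.369). In each of these 3 entries PS19 replicate 7 and WT replicate 3 were the highest libraries of their genotypes. Pro-GGG-1-1, with reads in 3 PS19 and 4 WT libraries, had a log2 difference of -0.19 ± 0.65 (SE; exact permutation p = 0.765), a value whose sign turned to 0.046 with library totals 0.11 with miRNA factors and 0.89 within the libraries of the PS19 letter. Pro-AGG-2-1, whose reads are equally those of the Leu-TAA-5 entries and which was named after its values had been seen, had a log2 difference of 1.38 ± 0.79 (SE; exact permutation p = 0.159), and 2.32 within the libraries of the PS19 letter.

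Asp tRNAs formed unlike groups. Asp-GTC-2-1, the most abundant Asp entry with 4400 reads, had a lowest, median and highest normalized count of 72.3, 163 and 1170 in PS19 and of 16.5, 261 and 682 in WT. The means were nearly equal, 329.7 ± 362 and 329.7 ± 261 (SD, n = 8 each), and the log2 difference was 0.10 ± 0.67 (SE; exact permutation p = 0.905), with a sign that turned to -0.16 with library totals and -0.51 in edgeR. Within the libraries of the PS19 letter it was 1.55, without passing in limma. It was the steadiest of the leading entries, with a range of 5.94 times in RPM between the lowest and the highest library.

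The 13 Asp-GTC-1 entries stood far higher in 1 library than in the rest. Asp-GTC-1-5, named after its values had been seen and identical to 5 others, had a lowest, median and highest normalized count of 16.5, 46 and 1576 in PS19 and of 11.9, 37.4 and 153 in WT. PS19 replicate 4 held 65.4% of the summed normalized count and 411 of the 1219 reads, and its level of 6.01 RPM lay far above the next, 1.88 in PS19 replicate 1. edgeR gave a log2 difference of 1.42, which passed at raw p under 0.05 (adjusted p = 0.251), while limma gave 0.73 ± 0.72 (SE; adjusted p = 0.829) and DESeq2 0.12 (adjusted p = 0.972). Without PS19 replicate 4 the differences were 0.03 in edgeR, 0.08 in limma and 0.14 in DESeq2, and none passed. DESeq2 can replace a single outlying count before its fit, so its 0.12 may not use the reads of that library, which was not tested.

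**Figure D4:**
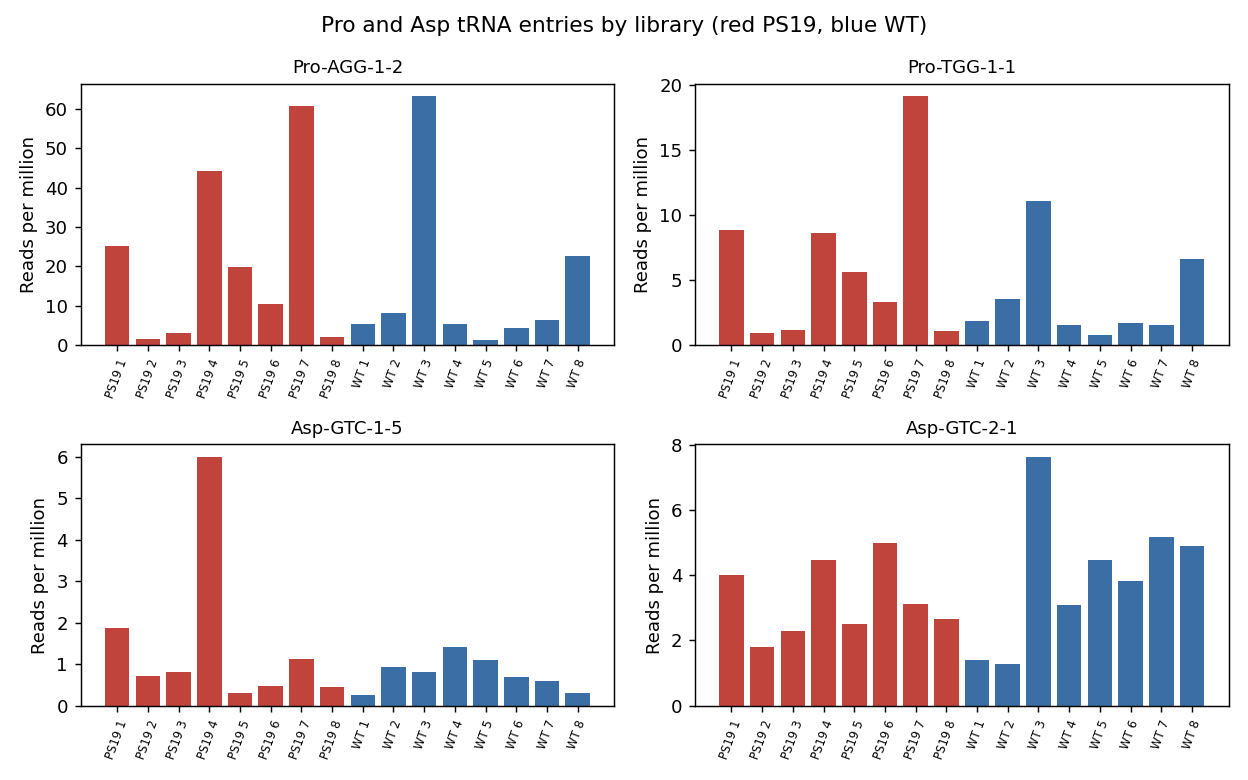
RPM in each library (bars from 0; red PS19, blue WT) of 2 Pro entries (top) and 2 Asp entries (bottom). Both Pro entries are highest in PS19 replicate 7 and WT replicate 3, Asp-GTC-1-5 stands at 6.01 in PS19 replicate 4 alone, and Asp-GTC-2-1 runs from 1.28 to 7.63.

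Among the tRNAs of the aromatic residues, Tyr was the most abundant. Tyr-GTA-6-1 (464 reads) had a lowest, median and highest normalized count of 2.74, 12.5 and 99.7 in PS19 and of 11.1, 26.1 and 103 in WT. Of the PS19 libraries 2 lay above the WT median and 0 above the WT range. The log2 difference was -1.05 ± 0.62 (SE; exact permutation p = 0.134). Without PS19 replicate 4 it was -1.45 in limma, -1.44 in edgeR and -1.51 in DESeq2, each with a raw p under 0.05, whereas within the libraries of the PS19 letter it was -0.40. Of the 16 limma fits with 1 library left out, only this 1 passed, and the edgeR and DESeq2 fits were added after the values had been seen. The 3 tools used the same libraries and are not separate evidence. As RPM it stood at 0.259 ± 0.227 in PS19 against 0.558 ± 0.327 in WT (SD, n = 8 each; exact permutation p = 0.0502).

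Of the 11 Tyr entries, 8 had a log2 difference below 0 and 3 above 0, and the summed Tyr level differed by -0.11 (exact permutation test, p = 0.71). The 8 are not separate measurements. Tyr-GTA-1-1 is identical to 3 others at -0.25, and Tyr-GTA-1-5, which nearly shares their reads, had 0.01. Tyr-GTA-3-1 and Tyr-GTA-3-2 also share most reads. Tyr-GTA-4-1, named after its values had been seen because it passed in edgeR with a log2 difference of 2.52 (adjusted p = 0.115), had 61 reads, of which 36 came from PS19 replicate 1 and 11 from WT replicate 5. limma gave it 0.98 ± 0.76 (SE; exact permutation p = 0.296) and DESeq2 1.16. Without PS19 replicate 4 it again passed at raw p under 0.05 in edgeR, with 2.55 (adjusted p = 0.176), while DESeq2 turned to -0.45 and limma gave 0.64, neither of which passed.

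Trp-CCA-6-1, the leading Trp entry with 184 reads, had a lowest, median and highest normalized count of 1.84, 7.12 and 50.8 in PS19 and of 1.01, 3.87 and 11.9 in WT. PS19 replicate 2 alone held 71 of the reads and WT replicate 2 held 29. Of the PS19 libraries, 3 lay above the WT range, and 4 above the WT median. The log2 difference was 0.88 ± 0.62 (SE; exact permutation p = 0.191). DESeq2 gave 1.55, which passed at raw p under 0.05 (adjusted p = 0.28) but not without PS19 replicate 4 (1.47, adjusted p = 0.358). Within the libraries of the PS19 letter limma gave -0.26 ± 1.09 (SE; adjusted p = 0.951). Trp-CCA-5-1, named after its values had been seen because it was lower in limma and edgeR without PS19 replicate 4, had 41 reads, 19 of them in that library. With all libraries its mean normalized count was 9.2 in PS19 and 2.2 in WT. The log2 differences were -0.30 in limma, -3.03 in DESeq2 and 0.85 in edgeR, none of which passed. DESeq2 can replace a single outlying count before its fit, so its value may leave out those 19 reads, which was not tested.

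Phe-GAA was near the limit of detection. Phe-GAA-1-1 and the 4 entries identical to it had 49 reads, with reads in 5 PS19 and 3 WT libraries and more than 3 reads in 5 of the 16. Its lowest, median and highest normalized count was 0, 1.6 and 30.7 in PS19 and 0, 0 and 5.79 in WT, and 3 PS19 libraries lay above the WT range. The log2 difference of 1.23 ± 0.75 (SE; exact permutation p = 0.169) did not pass in limma, DESeq2 or edgeR, nor in limma within the libraries of the PS19 letter, where it was 1.92. All 7 Phe entries had a difference above 0, between 0.15 and 1.23, and 5 of them are 1 measurement.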

How the data were processed

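The authors aligned single-end small RNA reads with STAR 2.5.3a and assigned them to ncRNAs with COMPSRA. The deposited signal is the count of each ncRNA divided by the library's size factor from DESeq2 1.42.1 (versions from the submitters' processing notes, which name mm10). The authors' own comparison columns (base mean, fold change, standard error, statistic and p-values) were not used. Whole reads were recovered from the smallest positive value of each library, and 100% of values were whole within 1e-06 of a read.

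PS19 was compared with WT by limma 3.58.1 (lmFit, eBayes with trend; two-sided) on log2(normalized count + 1) over all 15159 ncRNAs, with Benjamini-Hochberg adjustment; limma was used since the deposited values are normalized, although the study used DESeq2. Fold changes on this scale understate changes of rare ncRNAs. Single values were tested by two-sided exact permutation of 8 against 8 libraries. DESeq2 1.42.0 and edgeR 4.0.16 (quasi-likelihood, TMM) were run on the recovered reads as alternatives, beside other scalings (library totals, factors from 241 miRNAs), mean normalized counts of at least 1 or 10, a pseudocount of 0.1, a replicate block, libraries of the PS19 letter, each library left out, and other ways to count identical entries. Counting 1 entry per group that shares reads, and DESeq2 and edgeR without PS19 replicate 4, were added after the values had been seen. DESeq2 ran with its default settings, which replace single outlying counts in groups of this size, so its fits may not use every recovered count. Named entries are the most abundant of each anticodon and every entry with a raw p under 0.05 in limma or DESeq2, 1 per identical set; others are marked as named after their values were seen. The members and lists were chosen with earlier results of these data known. limma, DESeq2 and edgeR were also run on simulated counts in which 200 ncRNAs had been changed and entries did not share reads. R 4.3.3, Python 3.11.15, numpy 2.4.6 and pandas 2.3.3 were used.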

Additional observations from a re-analysis of the deposited data

Results flagged for a closer look

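Of 58 groups of 8 libraries examined for a library far from the rest, 5 had one. The rule's rate of 1 in 20 holds for separate, normally distributed values. These groups overlap in reads and libraries, so the count was not compared with chance. All 5 were shares of the tRNA reads. The Asp share in PS19 was 0.00468% in PS19 replicate 4 against 0.00174% in the next library, a gap of 0.696 of the range. In WT, the share of both kinds of Met was 0.000588% in WT replicate 2 against 0.000128% (gap 0.809 of the range), and the Trp share was 0.000298% in the same library against 8.4e-05% (gap 0.724). The Pro share in WT was 0.0529% in WT replicate 3 against 0.0194% (gap 0.649), which also set the share of all 79 entries there, 0.0544% against 0.0203% (gap 0.666). WT replicate 2 had the fewest reads of all libraries, 31153639 with identical entries counted once, and the lowest tRNA share of the sum over all entries, 90.8%.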

How the results depend on the processing

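Titles number both groups from 1 to 8, but the numbers are those of different mice. Same-numbered libraries correlated in their deviations between -0.18 and 0.47 over 2625 ncRNAs, and 1 of 8 PS19 libraries correlated best with its own number, so they share only a number. With the replicate block, limma gave 8 entries higher and 0 lower, and iMet-CAT-3-1 again passed with a log2 difference of 1.38. The summed initiator level had an exact permutation p of 0.0938 with the numbers paired. The block changed no call.

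The 8 entries higher in PS19 became 0 with library totals, 0 within the PS19 letter, 2 with 1 entry per identical set, 1 per group that shares reads, 14 in edgeR, 1 in edgeR and 0 in DESeq2 without PS19 replicate 4, and 0 to 9 with each library left out (0 without PS19 replicate 1, PS19 replicate 4, WT replicate 5 or WT replicate 6). The 0 lower became 2 in edgeR and 1 in DESeq2 without that library, and 0 to 2 with each left out. The summed initiator level passed with library totals (1.13), miRNA factors (1.97) and the most abundant entry alone (1.38), and ran from 1.03 to 1.70 over the left-out libraries. The initiator to elongator ratio passed with the most abundant entry (2.24) and with 1 entry per group that shares reads (1.97), and ran from 1.60 to 2.65 over the left-out libraries.

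Depth limits the rarer entries, 24 of which had under 100 reads in all. Directions turned as follows, and no turned value passed. Pro-GGG became 0.046 with library totals, 0.11 with miRNA factors and 0.89 within the PS19 letter (left-out range -0.48 to 0.15). The Tyr sum became 0.47 with miRNA factors and 0.27 within the letter (left-out range -0.27 to 0.018), the Trp sum -1.09 within the letter, and Trp-CCA-6-1 -0.26. Asp-GTC-2-1 became -0.16 with library totals, -0.0040 in DESeq2 and -0.51 in edgeR, and -0.69 in both without PS19 replicate 4 (left-out range -0.41 to 0.34), and the Asp sum ran from -0.12 to 0.70. Without that library Pro-AGG-1-2, Pro-CGG-1-3 and Pro-TGG-2-4 became -0.35, -0.35 and -0.36 in edgeR and -0.33, -0.33 and -0.34 in DESeq2. Trp-CCA-5-1 had 0.85 in edgeR against -0.30 in limma, and Tyr-GTA-4-1 had -0.45 in DESeq2 without that library. Among shares, Met became -0.00017 percentage points within the letter and Asp -0.000201 with 1 entry per sharing group. Left-out ranges were -8.32e-05 to 0.00052 for Asp, 5.33e-06 to 8.66e-05 for Met, whose top passed (exact permutation p = 0.000466 without WT replicate 2), -9.85e-07 to 6.13e-06 for Phe and -2.63e-05 to 2.12e-05 for Trp. The causes were not tested. Among named entries, 18 values lost the threshold, all of iMet-CAT-3-1 and iMet-CAT-1-1, and 4 gained it, 3 of Tyr-GTA-6-1 without PS19 replicate 4 and 1 of Trp-CCA-6-1 in DESeq2. Of the other values, 427 of the summary results and 250 of the named entries kept their direction and side of the threshold.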
